A study of Mus musculus with 15 samples.

Results

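Genes of sterol and fatty acid synthesis that are targets or controllers of the sterol regulatory element binding proteins (SREBPs) were followed in mouse medial prefrontal cortex (mPFC). The set was a fixed list of 35 gene symbols, chosen by function, although earlier results of these data were known when it was drawn up. All 35 were found among the 27179 gene identifiers of the count table, and all 35 were among the 16816 genes with enough counts to be tested. By role, 8 act in the mevalonate steps, 11 between squalene and cholesterol, 6 in SREBP control and sterol transport, and 10 in fatty acid synthesis and desaturation.

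The study measured RNA in 15 libraries of mPFC dissected from C57BL/6J mice, a standard inbred strain. The mice had been treated with ABX or not (non-ABX), and tissue was taken before or after fear extinction, the training in which a learned fear response wanes. The labels give no agent, dose or duration for ABX, and no age or sex. Before extinction there were 3 non-ABX and 4 ABX libraries, and after extinction 4 of each, which makes 4 groups. All 4 groups share strain and region, and the labels name no transgene. Each library is labelled as a separate sample, but the labels do not say that each came from 1 mouse, so p-values reflect how much the libraries themselves spread.

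SREBPs are membrane-bound transcription factors of the endoplasmic reticulum. When membrane sterol is low, the escort protein Scap carries them to the Golgi apparatus, where they are cut and released to the nucleus to switch on genes of cholesterol and fatty acid synthesis. When sterol is high, Insig proteins hold Scap back. Adult brain makes its own cholesterol, because lipoprotein cholesterol does not cross the blood-brain barrier, and astrocytes and oligodendrocytes are known to be major producers.

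Depth was 44254906 to 57929503 counts per library, and 19621 to 19939 genes were detected in each. The extraction text speaks of sorted cells although the source is dissected tissue, and the summed markers of neurons were high in every library, at 9225 to 10795 CPM (a gene's counts relative to the library's total, scaled by TMM factors). Summed over 7 markers, astrocyte RNA was 5719 to 6396 CPM in pre-extinction non-ABX, 5876 to 8018 in pre-extinction ABX, 5649 to 5943 in post-extinction non-ABX and 6045 to 6431 in post-extinction ABX. The 9 mature oligodendrocyte markers summed to 1040.2 to 1069, 1059 to 1167, 938 to 1108 and 894 to 1121 CPM in the same order. No astrocyte or oligodendrocyte marker was at 0 in any library. Libraries also differed in how their counts leaned with the GC content of transcripts. This GC slope, in log2 units per 10 percentage points of GC, ran from -0.14 to 0.32 in pre-extinction non-ABX, -0.41 to 0.04 in pre-extinction ABX, 0.05 to 0.29 in post-extinction non-ABX and -0.12 to 0.12 in post-extinction ABX. It moved with both ABX and stage, so the stage and ABX comparisons averaged over the other factor are also given with the GC trend removed.

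The plot of all members by library shows the pattern described gene by gene after it.

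**Figure D1:**
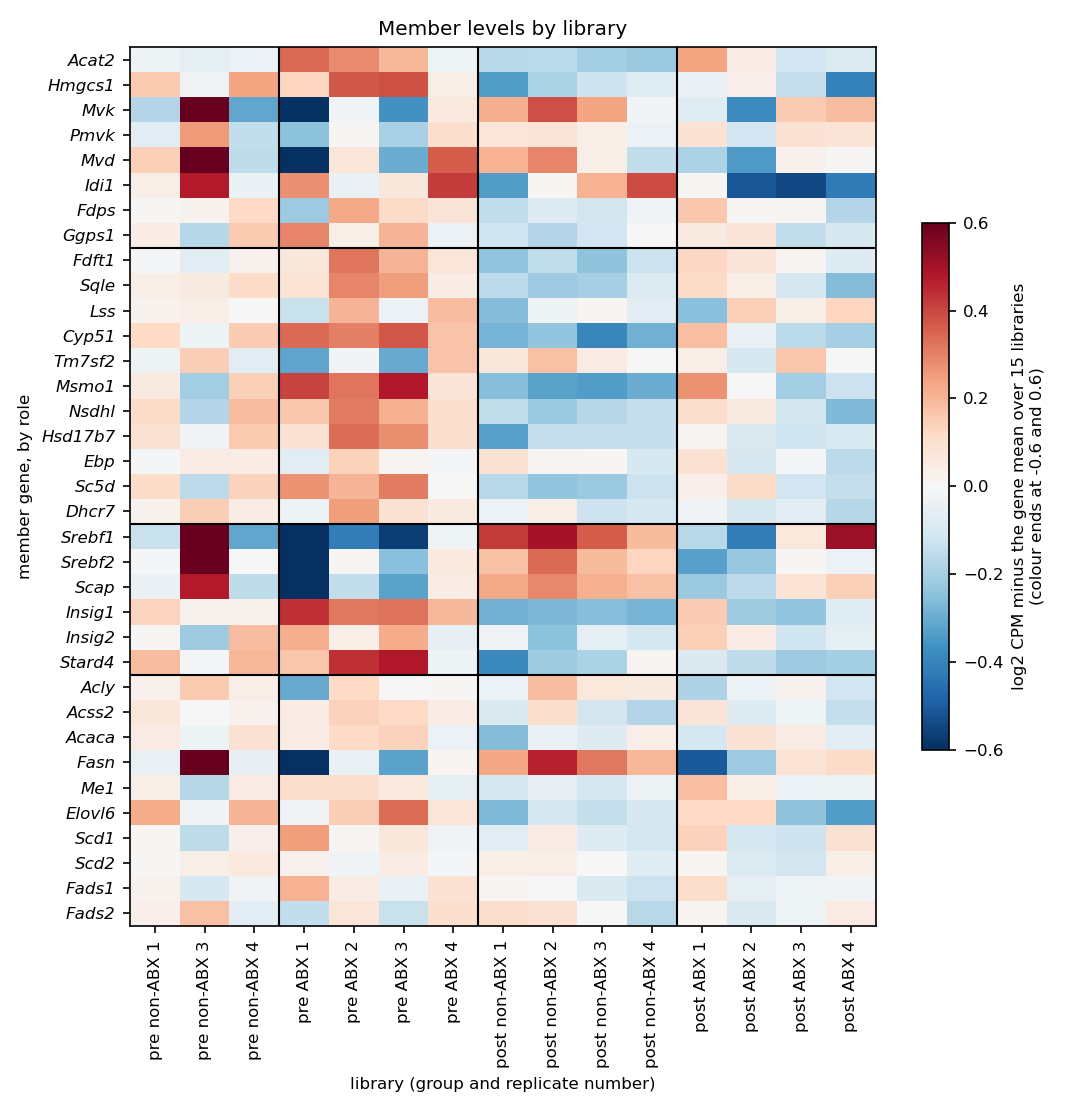
Each row is a member, ordered by role, and each column 1 of the 15 libraries, ordered by group; colour is the log2 CPM relative to the member's mean over all libraries. Most rows of the squalene to cholesterol steps (not Lss, Tm7sf2 or Ebp), with Insig1, Stard4 and Hmgcs1, sit above their mean in most pre-extinction libraries and below it in most post-extinction libraries, whereas Srebf1, Srebf2, Scap and Fasn follow another pattern.

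Of the 35 members, 28 had a promoter in the RefSeq table of build GRCm38.p6, covering 250 bases before to 50 bases after the transcript start. On both strands, 4 motifs were searched: a sterol regulatory element TCACNCCAC, the CCAAT box CCAAT bound by the cofactor NF-Y, the Sp1 box GGGCGG, and the E-box CACGTG. None of these motifs contains another, although matches may lie side by side. The sterol element was in 1 of 28 members (3.57%), Hmgcs1, against 1.39% of the 12772 tested genes with a promoter and 1.24% of all 32851 promoters. CCAAT was in 23 of 28 members (82.1%) against 42.1% of tested genes, and 37.4% of all promoters. GGGCGG was also in 23 of 28 (82.1%) against 64.4% of tested genes, and CACGTG was in 5 of 28 (17.9%) against 11% of tested genes. A match describes letters in this window and not a bound site. Only exact matches to these letters were counted, so a promoter without a match may still hold a variant form of the element.

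The 250 bases before the start are shown for 4 of the 5 members that passed the stage test, on the gene's own strand, 5′ to 3′. Hmgcs1 was chosen as the member holding the sterol element; Insig1, Cyp51 and Hsd17b7 were added because they passed the stage test. Capitals mark the sterol element and every CCAAT box, which reads ATTGG where it lies on the opposite strand.
Hmgcs1, chr13:119690101-119690350, + strand: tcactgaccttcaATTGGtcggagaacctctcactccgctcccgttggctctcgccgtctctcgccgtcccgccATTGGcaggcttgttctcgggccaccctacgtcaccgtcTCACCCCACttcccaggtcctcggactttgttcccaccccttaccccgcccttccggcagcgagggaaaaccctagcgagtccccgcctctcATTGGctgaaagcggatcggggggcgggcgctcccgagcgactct
Insig1, chr5:28071162-28071411, + strand: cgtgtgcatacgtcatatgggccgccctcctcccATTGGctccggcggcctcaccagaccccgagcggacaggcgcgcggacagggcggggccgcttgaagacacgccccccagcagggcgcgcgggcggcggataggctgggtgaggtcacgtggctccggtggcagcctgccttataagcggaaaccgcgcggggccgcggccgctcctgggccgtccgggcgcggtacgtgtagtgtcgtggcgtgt
Cyp51, chr5:4104698-4104947, - strand: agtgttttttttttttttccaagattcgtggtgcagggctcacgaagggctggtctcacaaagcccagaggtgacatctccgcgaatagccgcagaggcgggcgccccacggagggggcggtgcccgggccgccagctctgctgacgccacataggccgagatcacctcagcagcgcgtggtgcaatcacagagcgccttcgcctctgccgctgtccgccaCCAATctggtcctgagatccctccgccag
Hsd17b7, chr1:169969206-169969455, - strand: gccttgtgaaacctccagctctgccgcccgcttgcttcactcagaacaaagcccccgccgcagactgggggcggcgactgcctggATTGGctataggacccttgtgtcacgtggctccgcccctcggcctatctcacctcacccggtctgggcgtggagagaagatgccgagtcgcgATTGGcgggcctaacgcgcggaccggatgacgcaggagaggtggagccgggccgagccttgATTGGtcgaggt
Hmgcs1 carries the sterol element as TCACCCCAC, with its first base 137 bases before the start, between CCAAT boxes that begin 176 and 45 bases before it; another lies 237 bases before it. Hsd17b7 has 3 CCAAT boxes, at 165, 73 and 12 bases before its start. Cyp51 has 1, at 29 bases, and Insig1 has 1, at 216 bases.

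Levels between genes were compared per length, as the mean CPM over 15 libraries per kilobase of the longest annotated transcript. Scd2, a stearoyl-CoA desaturase, stood highest at 227 CPM per kb. After it came Hmgcs1, which makes HMG-CoA for the mevalonate pathway, at 95, and the fatty acid desaturase Fads1 at 84.5. Acly, which supplies cytosolic acetyl-CoA, had 54.6 and Scd1 51.2 CPM per kb. The lowest was Idi1, the isopentenyl diphosphate isomerase, at 0.165 CPM per kb, followed by the sterol carrier Stard4 at 4.54 and lanosterol synthase, Lss, at 4.68. Any reads shared by like stretches of related genes, as Scd1 and Scd2 or Idi1 and its relatives may have, cannot be told apart in a count table.

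The first question was how members differed between tissue taken before and after extinction. Averaged over ABX and non-ABX, 5 of 35 members were lower after extinction and 0 were higher at an adjusted p under 0.05 (edgeR quasi-likelihood test, Benjamini-Hochberg over all 16816 genes). In the same comparison 0.963% of all genes tested passed, and 0.743% passed as lower. The 5 were Insig1, Stard4, Cyp51, Hsd17b7 and Hmgcs1, with log2 fold changes of -0.27 to -0.38. Without adjustment (p under 0.05), 15 members were lower, against 11.8% of all genes, and 1, Srebf1, was higher, against 8.62%. DESeq2 called 9 members and limma voom with sample quality weights 19, of which 4 were higher, against 4.19% and 37.8% of genes. Of the 35 fold changes, 28 were negative and their median was -0.10, while over all genes 49.8% were negative with a median of 0.00. In bulk tissue, fewer cells of a type and less RNA per cell cannot be told apart.

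By role, 10 of the 11 squalene to cholesterol members had a negative fold change, with a median of -0.23. In the mevalonate steps 6 of 8 were negative with a median of -0.12. Among fatty acid members 9 of 10 were negative, but the median was -0.04. The control and transport members were split, with 3 of 6 negative and a median of -0.04.

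**Figure D2:**
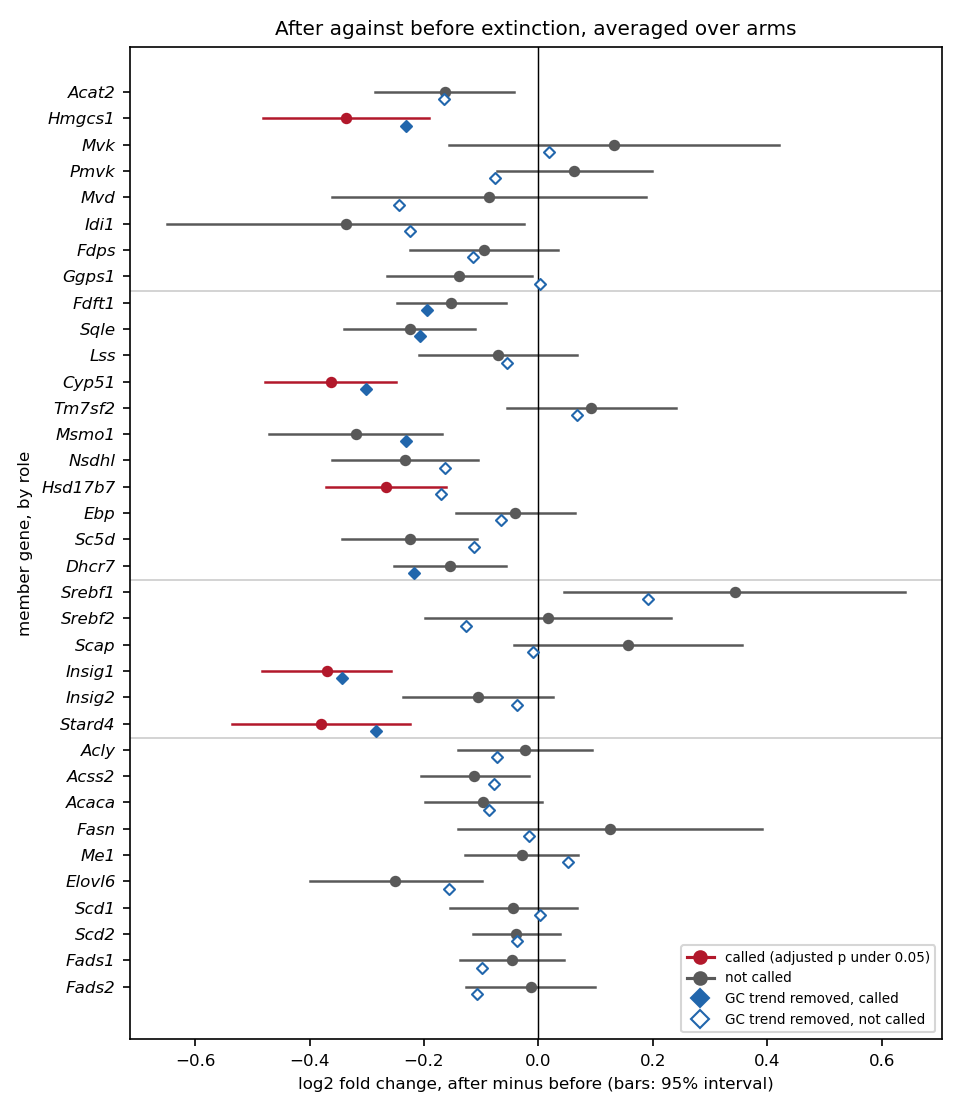
Log2 fold change after against before extinction, averaged over ABX and non-ABX, for each member by role. Points are edgeR estimates, bars their approximate 95% intervals, and diamonds the estimates with the GC trend removed. The 5 members that passed lie between -0.27 and -0.38, and most of the fatty acid members lie close to 0.

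Among the control genes, Insig1 encodes a sterol sensor that retains Scap and is itself a known SREBP target. It stood at 59.5, 55.3 and 55.3 CPM in pre-extinction non-ABX, 73.7, 67.6, 68.2 and 62.1 in pre-extinction ABX, 44.5, 45.1, 45.5 and 44.8 in post-extinction non-ABX, and 60.3, 46.9, 46.1 and 51.7 in post-extinction ABX. Every post-extinction non-ABX library lay below every pre-extinction library, and within each arm the stages did not overlap; only the highest post-extinction ABX library, at 60.3 CPM, reached above the pre-extinction non-ABX libraries. Averaged over arms its log2 fold change came to -0.37 (SE 0.06, edgeR adjusted p = 0.0115).

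Stard4, a soluble carrier that moves sterol between membranes, was measured at 26, 22.7 and 26.2 CPM in pre-extinction non-ABX, 25.6, 30.9, 31.8 and 22.3 in pre-extinction ABX, 17.5, 19.7, 20 and 23.1 in post-extinction non-ABX, and 21.5, 20.5, 19.6 and 19.8 in post-extinction ABX. The stages did not overlap within ABX, and within non-ABX the highest post-extinction library, 23.1 CPM, was just above the lowest pre-extinction library, 22.7 CPM. Stard4 fell by 0.38 on the log2 scale (SE 0.08, edgeR adjusted p = 0.033).

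The other Insig gene and the SREBP genes themselves did not pass with all 15 libraries. Insig2, the paralog of Insig1, showed a change of -0.11 (SE 0.07, edgeR adjusted p = 0.344) and overlapped between stages in both arms. Srebf1, which encodes the SREBP that favours fatty acid genes, read 27.9, 47.5 and 24.7 CPM in pre-extinction non-ABX, 19.7, 23, 20.7 and 30.1 in pre-extinction ABX, 41.1, 43.5, 39.5 and 35 in post-extinction non-ABX, and 27.3, 23, 32 and 43.8 in post-extinction ABX. Its libraries overlapped between stages, with a single high pre-extinction non-ABX value of 47.5 CPM. The estimate was positive, 0.34 (SE 0.15, edgeR adjusted p = 0.226). Srebf1 passed as higher without that library. It passed too without the 2 libraries of lowest and highest GC slope, at 0.48 (edgeR adjusted p = 0.0462), but that fit drops the same library. In both fits a larger share of all genes passed than with all 15 libraries. Srebf2, which encodes the SREBP that favours cholesterol genes, had 0.02 (SE 0.11, edgeR adjusted p = 0.935), and Scap had 0.16 (SE 0.10, edgeR adjusted p = 0.356).

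In the mevalonate steps, Hmgcs1 was the member that passed. Its values were 362, 321 and 383 CPM in pre-extinction non-ABX, 355, 421, 423 and 333 in pre-extinction ABX, 258, 285, 298 and 309 in post-extinction non-ABX, and 315, 332, 294 and 246 in post-extinction ABX. Within each arm all post-extinction libraries were below all pre-extinction libraries, and across arms 1 post-extinction ABX value, 332 CPM, lay above the lowest pre-extinction value, 321 CPM. Averaged over arms it fell by 0.34 on the log2 scale (SE 0.07, edgeR adjusted p = 0.0405).

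Acat2, the cytosolic acetyl-CoA acetyltransferase that starts the pathway, was at 27, 26.6 and 27 CPM in pre-extinction non-ABX, 35, 33.7, 31.8 and 27.2 in pre-extinction ABX, 24.7, 24.7, 23.9 and 23.7 in post-extinction non-ABX, and 32.6, 28.5, 25.6 and 26.2 in post-extinction ABX. The 3 pre-extinction non-ABX libraries lay above the 4 post-extinction non-ABX libraries by a small margin, and the ABX libraries overlapped between stages. The fold change of Acat2, -0.16 (SE 0.06, edgeR adjusted p = 0.175), did not pass. For farnesyl diphosphate synthase, Fdps, the libraries held 24.5, 24.8 and 26.5 CPM in pre-extinction non-ABX, 21, 28.6, 26.4 and 25.7 in pre-extinction ABX, 22, 23.2, 22.6 and 24.1 in post-extinction non-ABX, and 27.4, 24.5, 24.7 and 21.6 in post-extinction ABX. Its stages did not overlap in non-ABX and overlapped in ABX, and the averaged change was -0.10 (SE 0.07, edgeR adjusted p = 0.381). Idi1 was barely detected, at 0.500, 0.692 and 0.473 CPM in pre-extinction non-ABX, 0.597, 0.472, 0.512 and 0.665 in pre-extinction ABX, 0.377, 0.492, 0.568 and 0.651 in post-extinction non-ABX, and 0.49, 0.329, 0.322 and 0.354 in post-extinction ABX. All Idi1 values were under 1 CPM, the stages overlapped in both arms, and the averaged estimate was -0.34 (SE 0.16, edgeR adjusted p = 0.245). The remaining members of these steps, Mvk, Pmvk, Mvd and Ggps1, had mean levels of 12.7 to 37.5 CPM and log2 fold changes of -0.14 to 0.13, none of which passed.

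Between squalene and cholesterol, Cyp51 and Hsd17b7 passed. Cyp51, the lanosterol demethylase, was at 87.2, 78.5 and 89.1 CPM in pre-extinction non-ABX, 101, 98.9, 104 and 90.3 in pre-extinction ABX, 66.1, 68, 61.2 and 65.7 in post-extinction non-ABX, and 90.9, 77.9, 71.7 and 69.9 in post-extinction ABX. In non-ABX every post-extinction library was below every pre-extinction one, and in ABX a single post-extinction value, 90.9 CPM, was above the lowest pre-extinction value, 90.3 CPM. Cyp51 changed by -0.36 (SE 0.06, edgeR adjusted p = 0.0121). Hsd17b7, a sterol ketone reductase of the same branch, had 38, 35.1 and 39.7 CPM in pre-extinction non-ABX, 37.8, 45, 43.3 and 38.2 in pre-extinction ABX, 28.5, 32.3, 32.4 and 32.4 in post-extinction non-ABX, and 36.1, 33.6, 32.8 and 33.5 in post-extinction ABX. Stages did not overlap in either arm, and the lowest library, at 28.5 CPM, was 1 of the 4 post-extinction non-ABX libraries. On the log2 scale it changed by -0.27 (SE 0.05, edgeR adjusted p = 0.028).

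Msmo1, the sterol methyl oxidase that acts after Cyp51, was just outside the threshold. Its levels were 106, 88.1 and 112 CPM in pre-extinction non-ABX, 134, 127, 142 and 107 in pre-extinction ABX, 85.2, 81.3, 80.6 and 82.7 in post-extinction non-ABX, and 123, 102, 88.1 and 93 in post-extinction ABX. Non-ABX libraries did not overlap between stages, whereas in ABX 1 post-extinction value, 123 CPM, lay within the pre-extinction range. The averaged change was -0.32 (SE 0.08, edgeR adjusted p = 0.0611). Other members near the threshold were squalene epoxidase, Sqle, with -0.23 (SE 0.06, edgeR adjusted p = 0.073), the desaturase Sc5d with -0.23 (SE 0.06, edgeR adjusted p = 0.085), and the sterol dehydrogenase Nsdhl with -0.23 (SE 0.07, edgeR adjusted p = 0.0947).

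Squalene synthase, Fdft1, read 83.3, 80.5 and 85.6 CPM in pre-extinction non-ABX, 88.2, 105, 96.7 and 88.5 in pre-extinction ABX, 71.5, 76, 71.1 and 76.8 in post-extinction non-ABX, and 91.8, 88.8, 85 and 79.7 in post-extinction ABX. Its stages were separate in non-ABX and overlapped in ABX, and the averaged change was -0.15 (SE 0.05, edgeR adjusted p = 0.128). Dhcr7, the last reductase before cholesterol, was at 38, 41.5 and 38.7 CPM in pre-extinction non-ABX, 36.7, 44.7, 40 and 38.8 in pre-extinction ABX, 36.5, 38.3, 34.4 and 34.8 in post-extinction non-ABX, and 36.9, 35.1, 35.9 and 33.3 in post-extinction ABX. Its libraries overlapped between stages in both arms, and its estimate of -0.16 (SE 0.05, edgeR adjusted p = 0.13) did not pass. Lss, Ebp and Tm7sf2 had log2 fold changes of -0.07, -0.04 and 0.09. These 3 did not pass.

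**Figure D3:**
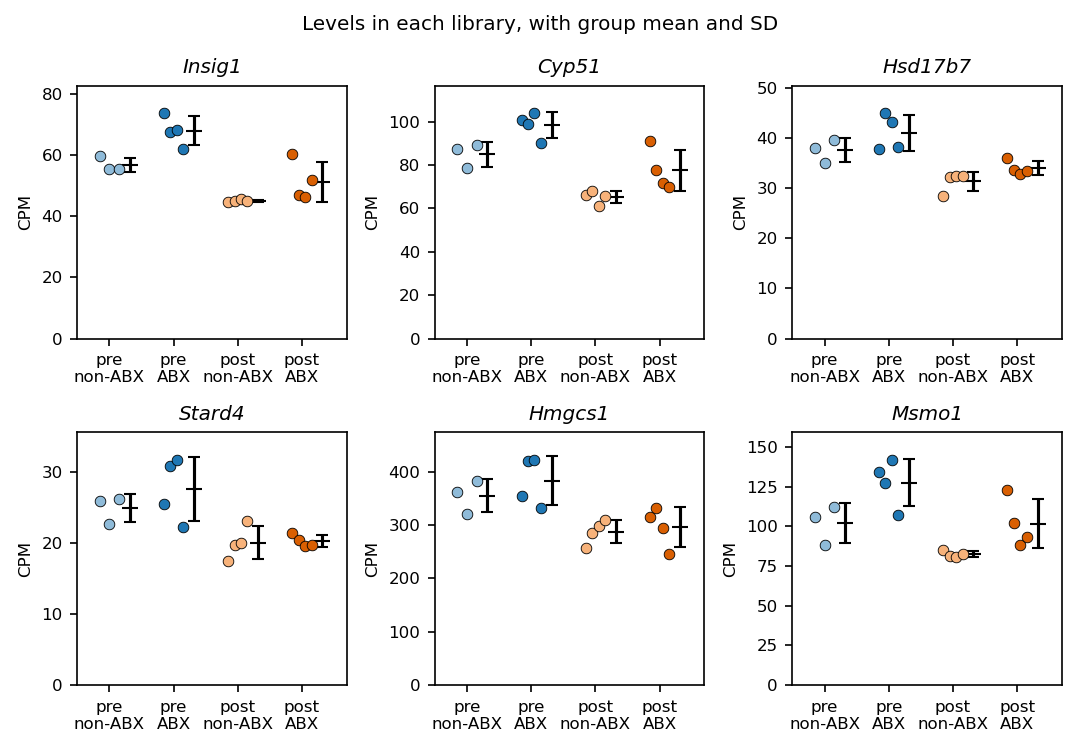
CPM of Insig1, Cyp51, Hsd17b7, Stard4, Hmgcs1 and Msmo1 in each of the 15 libraries by group; points are libraries, horizontal lines group means and bars 1 SD. In each panel both post-extinction group means lie below the pre-extinction mean of the same arm, for Insig1 at 45.0 and 51.2 CPM against 56.7 and 67.9 CPM.

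Of the 10 fatty acid genes 0 passed. Elovl6, which elongates saturated fatty acids, was measured at 79.1, 67.1 and 78.2 CPM in pre-extinction non-ABX, 66.9, 75.2, 85.7 and 71.4 in pre-extinction ABX, 56.6, 63.3, 61.5 and 63.5 in post-extinction non-ABX, and 73.7, 73.8, 57.4 and 53.8 in post-extinction ABX. The non-ABX libraries did not overlap between stages, and the ABX libraries did. Its averaged log2 fold change, -0.25 (SE 0.08, edgeR adjusted p = 0.118), was the most negative of the 10. Acss2, an acetyl-CoA synthetase, had 74.4, 71.1 and 72.2 CPM in pre-extinction non-ABX, 73.2, 78, 77.1 and 73.2 in pre-extinction ABX, 66.8, 76, 65.9 and 62.9 in post-extinction non-ABX, and 75, 67.3, 69.6 and 64.2 in post-extinction ABX, and acetyl-CoA carboxylase, Acaca, had 52, 49.2 and 53.4 CPM in pre-extinction non-ABX, 51.8, 54.6, 55.3 and 49 in pre-extinction ABX, 41.9, 48.9, 47.7 and 51.7 in post-extinction non-ABX, and 46.6, 53.3, 51.8 and 48.2 in post-extinction ABX. Both genes overlapped between stages in both arms. Acss2 changed by -0.11 (SE 0.05, edgeR adjusted p = 0.219), and Acaca by -0.10 (SE 0.05, edgeR adjusted p = 0.29). Fads1, which inserts a double bond into polyunsaturated fatty acids, stood at 296, 273 and 287 CPM in pre-extinction non-ABX, 337, 301, 284 and 309.7 in pre-extinction ABX, 294, 291, 274 and 266 in post-extinction non-ABX, and 314, 281, 286 and 289 in post-extinction ABX. It overlapped throughout, with -0.05 (SE 0.05, edgeR adjusted p = 0.537). The other 6, Acly, Fasn, Me1, Scd1, Scd2 and Fads2, had log2 fold changes of -0.04 to 0.13.

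With the GC trend removed from each library, 8 members were lower and 0 higher in the averaged stage comparison, where 2.23% of genes passed. Of these, 4 were among the 5 above, namely Insig1 at -0.34, Cyp51 at -0.30, Stard4 at -0.28 and Hmgcs1 at -0.23 on the log2 scale. Hsd17b7 moved from -0.27 to -0.17 and no longer passed (edgeR adjusted p = 0.0846), while Fdft1 at -0.20, Sqle at -0.21, Msmo1 at -0.23 and Dhcr7 at -0.22 did. Leaving out 1 library at a time, Insig1 passed in 15 of 15 fits and Cyp51 in 14 of 15, failing only without pre-extinction non-ABX replicate 4 (edgeR adjusted p = 0.0535). Hsd17b7 and Stard4 passed in 6 fits each and Hmgcs1 in 5. Without pre-extinction non-ABX replicate 4, 1 member passed, against 0.0825% of all genes. Without pre-extinction non-ABX replicate 3, 11 passed, of which 1, Srebf1, was higher, against 13.3% of genes. Without pre-extinction ABX replicate 4, 9 passed, against 4.45% of genes. The count was 2, against 0.119% to 0.489% of genes, without each of 8 other libraries, namely pre-extinction non-ABX replicate 1, pre-extinction ABX replicates 2 and 3, post-extinction non-ABX replicates 1, 2 and 3, and post-extinction ABX replicates 3 and 4. None of the 7 astrocyte or 9 mature oligodendrocyte markers passed, and their median log2 fold changes were -0.04 and -0.09. The summed markers of neurons of the striatum, a neighbouring region, differed with stage, although single markers went both ways. Cortex also expresses some of them. Summed over 6 markers, they were 175 to 198 CPM before and 216 to 256 CPM after extinction in non-ABX, and 167 to 188 and 197 to 239 CPM in ABX, so the stages did not overlap in either arm. Of these 6 markers 4 had positive and 2 negative estimates, 1 passed as higher after extinction, and their median log2 fold change was 0.18. Much of the sum came from Pde10a, at 85.7 to 176 CPM over the libraries. None of the 6 was at 0 in any library, and their part in the members' values was not tested.

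Each arm was then tested alone. In non-ABX, 0 of 35 members passed after against before extinction, where 0% of all genes did. Unadjusted, 11 members had a p under 0.05 as lower, against 3.43% of genes, and 0 as higher, against 1.51%. With DESeq2 1 member passed and with limma voom and sample quality weights 14 passed, against 0.113% and 19% of genes. Of these 14, 11 were lower and 3, Mvk, Srebf1 and Scap, were higher. Libraries did not overlap for 10 members, all lower, against 3.57% of genes. Of the 35 estimates, 29 were negative with a median of -0.11, and Cyp51 had the smallest p, with -0.38 (SE 0.09, edgeR adjusted p = 0.41).

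In ABX, 0 of 35 passed, where 0.0951% of genes did. Of the 35, 12 had an unadjusted p under 0.05 as lower, against 8.97% of genes, and 0 as higher, against 7.67%. DESeq2 called 5 and limma voom with quality weights 8, against 1.68% and 2.77% of genes. Libraries did not overlap for 4 members, all lower, against 2.78% of genes. The 4 were Hmgcs1, Hsd17b7, Insig1 and Stard4. Insig1 had -0.41 (SE 0.08, edgeR adjusted p = 0.0658). Negative estimates numbered 27 of 35, with a median of -0.08.

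Whether the stage difference itself depended on ABX was tested by the interaction. Of 35 members 0 passed, as did 0% of all genes; 0 members had an unadjusted p under 0.05, against 2.06% of genes, and DESeq2 and limma voom with quality weights also called 0, against 0.0238% and 0% of genes. The difference of stage effects, ABX minus non-ABX, was -0.07 for Insig1 with an approximate 95% interval of -0.30 to 0.16. For Cyp51 it was 0.04 with an interval of -0.19 to 0.26, and for Hmgcs1 -0.06 with -0.35 to 0.23. Idi1 had the smallest unadjusted p, with a difference of -0.49 and an interval of -1.12 to 0.13. For Stard4 it was -0.13, for Dhcr7 -0.05 and for Fads1 -0.06. Missing the threshold does not show that the arms act alike.

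The second question was how ABX and non-ABX differed at each stage; these comparisons use the same libraries as the stage comparisons, so their values are set side by side and not counted as separate support. Before extinction 0 of 35 members passed, where 0.00595% of genes did. At an unadjusted p under 0.05, 5 were higher and 4 lower in ABX, against 4.57% and 11.4% of genes, and DESeq2 and limma voom with quality weights called 0, where they called 0.0892% and 0.00595% of genes. Libraries did not overlap for 4 members, all higher in ABX, against 3.62% of genes. They were Acat2, Fdft1, Cyp51 and Insig1. After extinction 0 passed, where 0.0178% of genes did. At an unadjusted p under 0.05, 5 were higher and 3 lower, against 6.45% and 6.83% of genes; DESeq2 called 0 and limma voom with quality weights 1, against 1.08% and 1.82% of genes. Libraries did not overlap for 6 members higher in ABX, against 4.74% of genes, and for 3 lower in ABX, against 6.36%. Those higher were Acat2, Fdft1, Cyp51, Msmo1, Hsd17b7 and Insig1, and those lower Srebf2, Scap and Fasn.

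Averaged over stages, 0 of 35 members passed in ABX against non-ABX, where 0.624% of genes did. At an unadjusted p under 0.05, 7 were higher, against 12.8% of genes, and 5 lower, against 17.8%; together these 12 of 35 are near the background of 30.6%. DESeq2 called 9 and limma voom with quality weights 5, against 11.8% and 5.36% of genes. The DESeq2 calls were 5 higher and 4 lower in ABX, and the voom calls were all higher. The median over members was 0.05, and 0.01 over all genes.

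Of the 19 sterol synthesis enzymes 12 had a positive estimate and 7 a negative one, with a median of 0.08, and 0 passed. In the mevalonate steps the split was 4 and 4 with a median of 0.00. Mvk and Mvd, whose transcripts are GC-rich at 56.3% and 59%, were at -0.28 and -0.27. The members of smallest p among these enzymes had positive estimates. The values for Fdft1 given above were higher in ABX than in non-ABX at each stage with no overlap, and the averaged estimate was 0.21 (SE 0.05, edgeR adjusted p = 0.0569). Msmo1 had 0.31 (SE 0.08, edgeR adjusted p = 0.0611), Cyp51 0.23 (SE 0.06, edgeR adjusted p = 0.0616) and Insig1 0.22 (SE 0.06, edgeR adjusted p = 0.0634). Acat2 was higher in ABX by 0.23 (SE 0.06, edgeR adjusted p = 0.0638).

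The SREBP genes, Scap and Fasn had the most negative estimates. Srebf2 was at 192, 291 and 192 CPM in pre-extinction non-ABX, 122, 194, 162 and 201 in pre-extinction ABX, 218, 244, 220.2 and 211 in post-extinction non-ABX, and 154, 165, 194 and 189 in post-extinction ABX. Post-extinction ABX libraries were all below post-extinction non-ABX, whereas before extinction the groups overlapped. Its averaged estimate was -0.38 (SE 0.11, edgeR adjusted p = 0.0683). Fasn, fatty acid synthase, read 259, 409 and 258 CPM in pre-extinction non-ABX, 148, 259, 214 and 269.6 in pre-extinction ABX, 314, 369, 333 and 306 in post-extinction non-ABX, and 188, 229.6, 283 and 289.9 in post-extinction ABX. In the ABX groups Fasn ranged from 148 to 289.9 CPM and in non-ABX from 258 to 409 CPM. Its estimate was -0.44 (SE 0.14, edgeR adjusted p = 0.0721). Scap had -0.31 (SE 0.10, edgeR adjusted p = 0.0796) and Srebf1 -0.42 (SE 0.15, edgeR adjusted p = 0.0931).

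**Figure D4:**
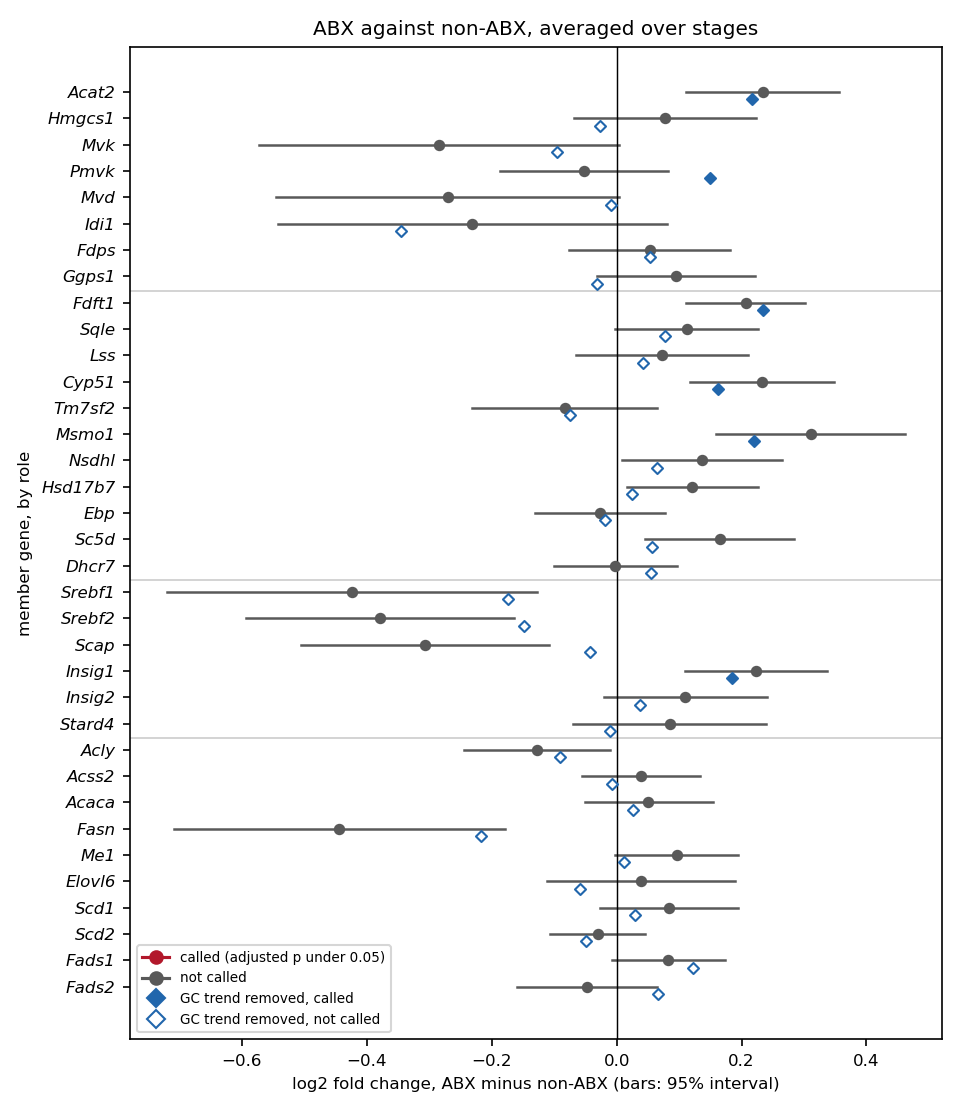
Log2 fold change of ABX against non-ABX averaged over stages for each member by role. Points are edgeR estimates with approximate 95% intervals, and diamonds the estimates with the GC trend removed, filled where the adjusted p was under 0.05. No member passed before the trend was removed, and 6 passed as higher afterwards, while Srebf1, Srebf2, Scap and Fasn moved toward 0.

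The 4 members with the most negative ABX estimates have GC-rich transcripts. The longest transcript of Srebf1 is 58.4% GC, Srebf2 57.9%, Scap 59.1% and Fasn 57.9%, against a median of 49.1% over the 35 members. The library of lowest GC slope, pre-extinction ABX replicate 1 at -0.41, held the lowest value of Srebf1, Srebf2, Scap and Fasn. The library of highest slope, pre-extinction non-ABX replicate 3 at 0.32, held the highest value of all 4. This was not particular to them. Mvd at 59% GC, Pmvk at 57% and Mvk at 56.3% were likewise lowest in the first of these libraries and highest in the second.

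**Figure D5:**
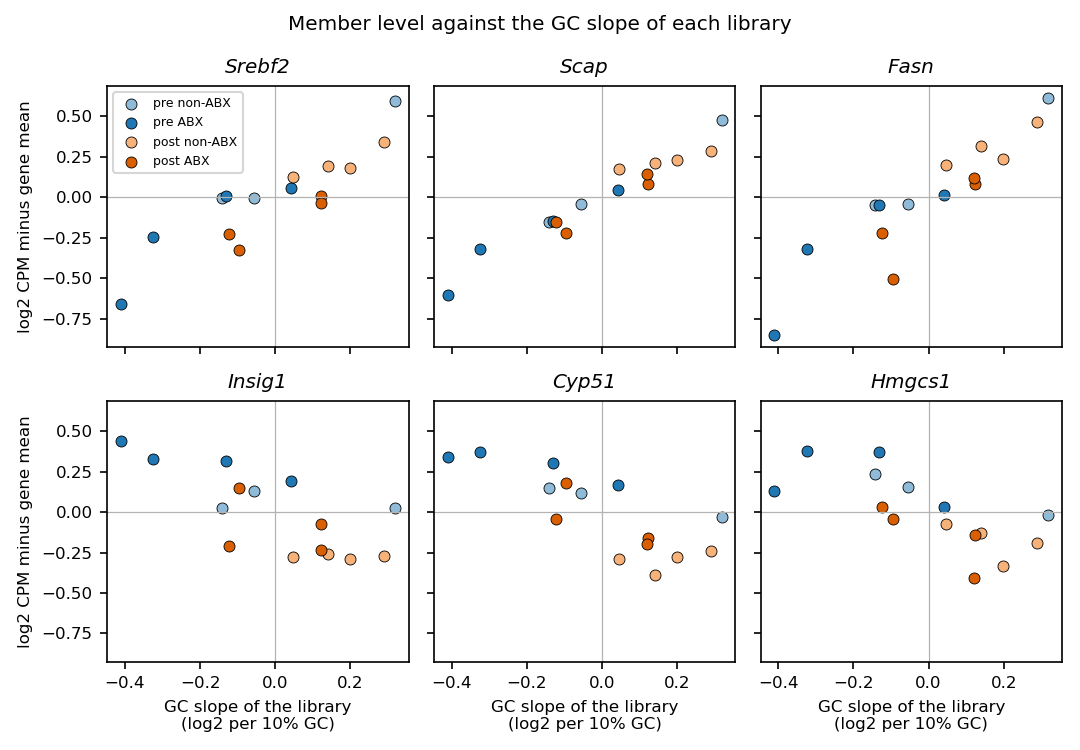
Log2 CPM minus the gene's mean for Srebf2, Scap, Fasn, Insig1, Cyp51 and Hmgcs1 in each of the 15 libraries, against the library's GC slope (log2 units per 10 percentage points of GC), coloured by group. Srebf2, Scap and Fasn are lowest at the slope of -0.41 and highest at 0.32, whereas Insig1, Cyp51 and Hmgcs1 tend to be lower at high slopes, with the pre-extinction library at 0.32 above all 4 post-extinction non-ABX libraries.

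With the trend removed, the averaged log2 fold change in ABX was -0.15 for Srebf2, -0.04 for Scap, -0.22 for Fasn and -0.17 for Srebf1, and none of the 4 passed. Under that setting 6 members passed as higher in ABX, where 4.2% of all genes passed. These were Fdft1 at 0.24, Acat2 at 0.22, Msmo1 at 0.22, Insig1 at 0.18, Cyp51 at 0.16 and Pmvk, the phosphomevalonate kinase, at 0.15. Markers of blood vessel cells also moved with ABX. All 7 endothelial markers had negative estimates and 3 passed as lower, with a median log2 fold change of -0.41. Of 7 mural cell markers 6 were negative and 3 passed as lower, with a median of -0.37; the part of these cells in the members' values was not tested.

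Other genes of the pathway were read from a list of 50, which held SREBP proteases, Insig-linked ubiquitin ligases, sterol efflux and storage genes, further lipid enzymes and cofactors such as Sp1 and Nfyb. All 50 were tested. In the stage comparison averaged over arms 0 passed, 23 of 50 estimates were negative and the median was 0.02, against 28 of 35 and -0.10 for the members. At an unadjusted p under 0.05, 9 of the 50 were higher, against 8.62% of all genes, and 5 lower, against 11.8%. In non-ABX alone 24 of 50 were negative. There 1 had an unadjusted p under 0.05 as higher, against 1.51% of all genes, and 0 as lower, against 3.43%. The 3 of smallest p there were Usf2, an E-box factor, at a log2 fold change of 0.14, Mlxipl, a carbohydrate-responsive factor, at 0.27, and the retinol dehydrogenase Rdh11 at -0.15, each with an edgeR adjusted p of 0.896. For ABX averaged over stages 0 of 50 passed, 30 were negative and the median was -0.04. Unadjusted, 6 of the 50 had a p under 0.05 as higher, against 12.8% of all genes, and 11 as lower, against 17.8%.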

How the data were processed

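RNA sequencing counts from 15 mPFC libraries were analysed. The authors deposited 1 table of raw, unnormalized counts, keyed by Entrez gene. The submitters' processing notes name STAR 2.3.0, CASAVA 1.8.2 and build mm10. The counting program and its annotation are not given in the sources used. Libraries were made with a SMARTer V4 kit, which does not keep strand, so antisense reads cannot be told apart. Symbols were matched through a RefSeq table of GRCm38.p6 (25275 of 27179 identifiers), and GC content and length came from the longest GENCODE M21 transcript of each gene.

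In R 4.3.3, edgeR 4.0.16 kept genes by filterByExpr (minimum count 10, minimum total 15) and scaled libraries by TMM factors of 0.969 to 1.03. A quasi-likelihood model with 4 group means was fitted to all 15 libraries and 16816 genes, and 7 contrasts were tested two-sided with Benjamini-Hochberg adjustment over all genes. The biological coefficient of variation was 0.112, so for well-detected genes the spread between libraries, more than counting error, limits precision at these depths. This does not extend to genes of few counts, such as Idi1. The model code was tested on simulated data. Alternatives were DESeq2 1.42.0, limma 3.58.1 voom with quality weights per sample, scaling by RLE, the filter dropped or set to a mean of at least 1 CPM, a replicate block, only the groups compared, each library left out, and a GC trend removed in each library by a natural spline of 5 degrees of freedom (15332 genes with a GC value). A block with the GC trend removed, and fits without 2 libraries of extreme GC slope or of most blood transcripts, were added after seeing the data.

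Members and lists were chosen with earlier results of these data known. Values in every library are given for members called in any contrast, and in each role for the 3 of smallest p in the non-ABX stage contrast, the 2 smallest in the averaged stage contrast, and the smallest in each ABX contrast and the interaction; Srebf2 was added after its values were seen.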

Additional observations from a re-analysis of the deposited data

Results flagged for a closer look

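Of 105 groups of 4 libraries tested for a value far from the others, 2 stood out, against about 1 in 20 expected by chance. Pmvk was 31.2 CPM in post-extinction ABX replicate 2, below the 35.7 to 36.0 CPM of the other 3 libraries of that group. Hsd17b7 was 28.5 CPM in post-extinction non-ABX replicate 1, below the 32.3 to 32.4 CPM of the other 3. Hsd17b7 is a member called lower after extinction.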

How the results depend on the processing

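All 7 member medians moved by less than the spread between libraries under every alternative run. That spread, 0.094, is the SD between replicates of a library's median member level. It is about as large as the medians or larger, so a median could reach 0 or change sign within it. Before extinction, the median for ABX against non-ABX went from 0.042 (13 of 35 negative) to -0.011 (19 of 35 negative) with the block and the GC trend removed. In the stage comparison averaged over arms, where 5 members passed, 9 passed with DESeq2, 19 with voom quality weights, 8 with the GC trend removed, 11 with the replicate block and the GC trend removed, and 12 without the 2 libraries of extreme GC slope, of which Srebf1 was higher. The shares of all genes that passed in these fits were 4.19%, 37.8%, 2.23%, 3.73% and 7.2%, against 0.963%. With libraries left out in turn the count was 1 to 11. In ABX against non-ABX averaged over stages, where 0 passed, the counts were 9 with DESeq2, 5 with voom, 6 with the GC trend removed and 10 with the block and the GC trend removed, where 11.8%, 5.36%, 4.2% and 11.4% of genes passed. It was 0 to 10 with libraries left out, with 10 without pre-extinction ABX replicate 4 (18.2% of genes) and 6 without pre-extinction non-ABX replicate 4 (6.2%). For the stage comparison within non-ABX, where 0 passed, the count was 1 with DESeq2, 14 with voom and 1 with the block and the GC trend removed, against 0.113%, 19% and 0.202% of genes. Within ABX it was 5 with DESeq2, 8 with voom, 2 with the GC trend removed, 3 with the block and the GC trend removed, 1 without the 2 libraries of most blood transcripts, against 1.68%, 2.77%, 0.502%, 1.23% and 0.0477% of genes. It was 0 to 4 with libraries left out, with 4 without pre-extinction ABX replicate 4 (1.41% of genes) and 2 without post-extinction ABX replicate 1 (0.256%). After extinction, ABX against non-ABX gave 1 with voom and 1 with the block and the GC trend removed in place of 0, where 1.82% and 2.72% of genes passed. The voom call, Fdft1, was higher in ABX, and the other call was lower. Before extinction and for the interaction the count remained 0 under each alternative. The interaction estimate of Dhcr7 ran from -0.104 to 0.004 with libraries left out, positive without pre-extinction ABX replicate 2, and that of Fads1 turned positive with voom and without the 2 libraries of extreme GC slope, at 0.013 each. The cause of these shifts was not tested.

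The labels number libraries 1 to 4 in the groups, with no replicate 2 in pre-extinction non-ABX. Taken over all numbers, same-numbered libraries did not deviate together more than others. Of 21 same-number pairs, 8 had a correlation of deviations over 0.1, the range was -0.49 to 0.37, the median was 0.02 against 0.03 for other pairs, and 5 of 15 libraries correlated best with their own number. With the replicate block 2 members passed in the averaged stage comparison, Insig1 and Cyp51, against 0.571% of genes, and 7 in the averaged ABX comparison, against 3.96%. Pairs of libraries numbered 1 all had positive correlations, from 0.02 to 0.36. Replicate numbers are treated as names only.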

Other observations

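Insig1 and Insig2 were also read against each other within a library, a ratio that no scaling of the library can change; it was chosen after the values were seen. Before extinction the ratio of Insig1 CPM to Insig2 CPM was 1.17, 1.27 and 0.965 in non-ABX and 1.26, 1.31, 1.16 and 1.27 in ABX. After extinction it was 0.895, 1.06, 0.935 and 0.954 in non-ABX, and 1.08, 0.900, 0.993 and 1.06 in ABX. The ABX libraries did not overlap between stages, whereas in non-ABX the lowest pre-extinction ratio lay within the post-extinction range. The GC content of the 2 transcripts is 48.2% for Insig1 and 46.0% for Insig2, and the part of the GC slope in this ratio was not tested.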
